A study of Drosophila melanogaster with 14 samples.

Results

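RNA of grp fs1 embryos was compared, gene by gene, with RNA of embryos of 2 Slbp mutants, Slbp 10/12 and Slbp 10/15, to describe what separates loss of a checkpoint kinase from loss of a histone mRNA binding protein. The genes compared were those with a mean of at least 5 normalized counts in the 2 grp fs1 libraries or in the 4 Slbp libraries. This held for 8189 of the 15288 genes listed. Of these, 7204 genes reached the minimum in both groups, 629 in grp fs1 alone and 356 in the Slbp mutants alone. At the edge of this choice, nAChRbeta2 was kept with means of 4.23 in grp fs1 and 5.02 in the Slbp mutants, and CG3301 was left out with means of 1.41 and 4.99.

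Embryos of all groups were collected 0 to 180 min after egg laying and extracted whole. Mothers of the mutant embryos were trans-heterozygous, either for grp fs1 or, in the Slbp mutants, for Slbp 10/12 or for Slbp 10/15, and had been mated to wt Oregon R males. Oregon R is also given as the strain background of each mutant and is the wt strain. The grp fs1 stock and the Slbp stocks came from different laboratories, so that the effect of a mutation and that of the rest of its stock cannot be told apart. Both Slbp combinations share the Slbp 10 allele. Each genotype gave 2 libraries, and no source used here says whether these came from separate collections. The p-values therefore reflect no more than the spread between these libraries, which may be technical. Each library pools many embryos, and fewer cells of a type (or fewer embryos of a stage) and less RNA per cell cannot be told apart.

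grp (grapes) encodes Chk1, the kinase that slows the last syncytial division cycles when DNA replication is incomplete. Embryos without maternal grp run through these cycles too fast and fail around the time when the zygotic genome takes over. Slbp encodes the protein that binds the stem-loop at the end of replication-dependent histone mRNAs, which lack a poly(A) tail, and is needed to cut these mRNAs at that end. The fly histone genes lie in a tandem array of repeats, each with a gene for every core histone and for the linker histone H1.

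The 6 mutant libraries held between 18758625 and 23410870 reads counted in genes, and the 2 wt libraries 17368684 and 18813175. At this depth a gene near 5 normalized counts rests on a few reads per library. The grp fs1 libraries stood apart from each other. Of the 8189 genes, 579 were at least 4-fold higher in grp fs1 replicate 2 than in replicate 1 and 2 were lower by as much, counted on log2(normalized count + 1). The same counts were 30 and 33 genes between the Slbp 10/12 libraries, 32 and 280 between the Slbp 10/15 libraries, and 14 and 10 between the wt libraries. Slbp 10/15 replicate 2 thus also stood apart, with lower values than replicate 1.

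Genes of differentiated tissue were among those that differed between the grp fs1 libraries. Mhc, the muscle myosin heavy chain, had 0.933 normalized counts in grp fs1 replicate 1 and 1123 in replicate 2, against no more than 18.8 in any Slbp library and 6053 and 6787 in wt. Act57B, a muscle actin, had 2.80 and 670 in grp fs1, 0.915, 1.75, 5.49 and 6.93 in the Slbp libraries, and 3850 and 4542 in wt. Both genes were thus near 0 in 5 of the 6 mutant libraries, and in neither did the groups separate. Of 17 muscle genes 16 were tested, and 1 was called higher and 0 lower in grp fs1. Of the 16, 9 had passed the minimum through grp fs1 alone. Their inclusion thus rested on the values of grp fs1. The median log2 difference of the tested muscle genes was 4.69 without grp fs1 replicate 1 and -0.45 without replicate 2. The 17 genes summed to 9746 and 14316 in grp fs1 and to between 9198 and 10320 in the Slbp libraries, most of it from Tm1, a tropomyosin that was not called. Cuticle genes summed to 29.9 and 939 in grp fs1 and to between 153 and 188 in the Slbp libraries, with 20 of 118 tested. The neuron list summed to 842 and 1103 in grp fs1 and to between 1324 and 1967 in the Slbp libraries, with 10 of 13 tested. The neuron markers Syt1 and brp were at 0 and 1.87 in grp fs1 replicate 1 and at 10.4 and 17.0 in replicate 2. The haemocyte list summed to 5084 and 6776 in grp fs1 and to between 3947 and 4946 in the Slbp libraries, with 8 of 11 tested. Of the tested cuticle, neuron and haemocyte genes, 16, 6 and 4 had passed the minimum through grp fs1 alone. Called higher and lower were 1 and 1 of 20, 0 and 2 of 10, and 2 and 0 of 8. The median log2 differences of these lists were 3.40, 2.82 and 3.13 without grp fs1 replicate 1. Without replicate 2 they were -1.17, -0.59 and -0.13. Of 20 eggshell genes of follicle cells 0 were tested, with sums of 0 and 10.4 in grp fs1 and of between 5.49 and 21.8 in the Slbp libraries. The yolk and fat body list summed to 4.67 and 22.6 in grp fs1 and to between 25.3 and 57.4 in the Slbp libraries, with 4 of 9 tested. The maternal RNAs that define early embryos were high in all 6 libraries, with bcd between 2755 and 3889 and osk between 19937 and 30649 normalized counts. Changes of calls and counts without a library that stands apart are given beside many genes and lists, but not beside all of them.

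**Figure D1:**
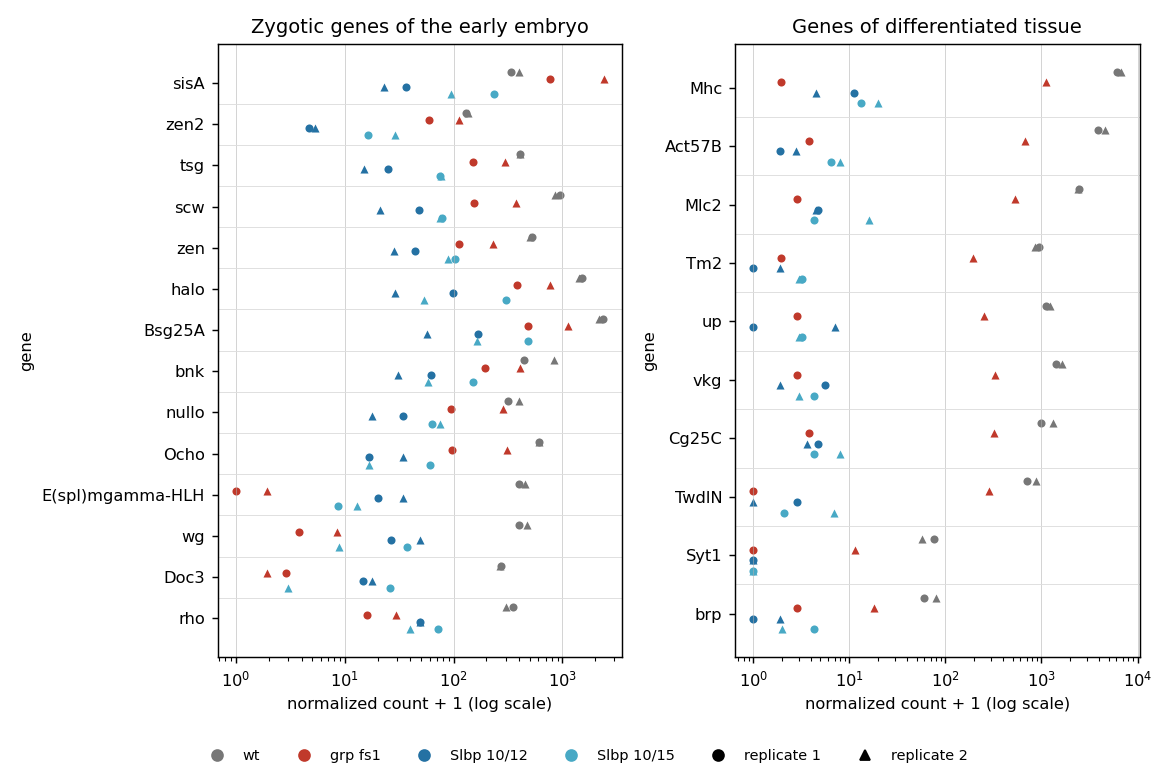
Normalized count + 1 (log axis) of single genes in each library, with wt in grey, grp fs1 in red and the Slbp mutants in blue, circles for replicate 1 and triangles for replicate 2. In the right panel grp fs1 replicate 2 lies between wt and the other 5 mutant libraries, as for Mhc with 1123 normalized counts against 0.933 in replicate 1. In the left panel both grp fs1 libraries lie above all Slbp libraries for sisA and zen2 and below them for E(spl)mgamma-HLH.

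With limma on log2(normalized count + 1), 1902 genes (23.2% of those tested) were higher and 1646 (20.1%) were lower in grp fs1 than in the mean of both Slbp mutants, at an adjusted p under 0.05. Against each Slbp mutant on its own, 929 genes (11.3%) were higher and 919 (11.2%) lower in grp fs1 in both tests. In opposite directions against the Slbp combinations 10 genes were called. Since both tests share the grp fs1 libraries, this count does not measure how alike the combinations were. Tested against each other, the combinations differed in 461 genes. Most differences were small. The median called difference was 0.46 on the log2 scale, and 2698 of the 3548 called genes (76.0%) differed by less than 2-fold. At least 4-fold differences were called for 290 genes (3.54%) higher and 239 genes (2.92%) lower in grp fs1. Without grp fs1 replicate 2, 1641 genes were higher and 1421 lower, with 333 of the latter at least 4-fold. Without replicate 1 these numbers were 1391 and 924, with 571 and 160 of at least 4-fold, and without Slbp 10/15 replicate 2 they were 1543 and 1326. With upper quartile scaling 1459 genes were higher and 615 lower, so that 70.3% of calls were higher, against 53.6% with the scaling of the authors. The median difference of all genes was 0.03 with the scaling of the authors and 0.10 with upper quartile scaling.

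**Figure D2:**
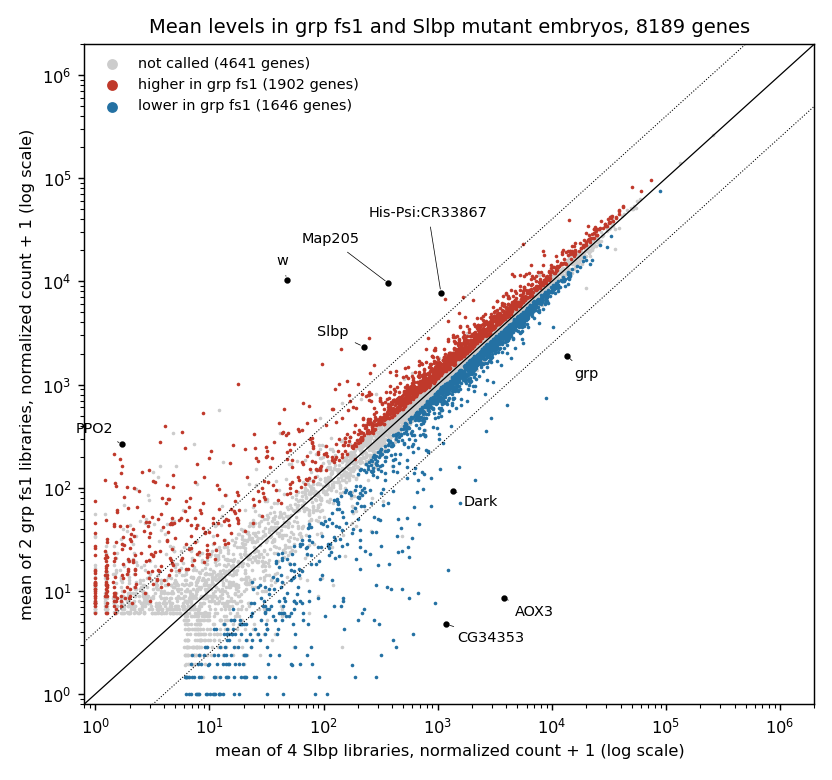
Mean of the 2 grp fs1 libraries against the mean of the 4 Slbp libraries for 8189 genes, both as normalized count + 1 on log axes. The full line marks equal levels and the dotted lines 4-fold differences. The 1902 genes higher in grp fs1 are red, the 1646 lower are blue, and genes that were not called are grey.

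Among called genes the differences were smaller where the level was higher. Small differences are rarely called in genes of few reads, so that whether low genes differed more was not tested. Of the 1696 genes with a mean below 50 normalized counts over the 6 mutant libraries, 16.0% were higher and 11.8% lower in grp fs1, and the median called difference was 2.65 on the log2 scale. Of the 4178 genes between 500 and 5000, 25.5% were higher and 22.6% lower, with a median called difference of 0.39. Above 5000 normalized counts 3 of 1067 genes were called with at least 4-fold differences, namely grp itself, mod and CR18854, of which mod and CR18854 were named after their values were seen. mod, which encodes a nucleolar protein, had 23010 and 22895 in grp fs1, 3743, 4844, 5625 and 8341 in the Slbp libraries, and 22908 and 21960 in wt (log2 difference 2.09, adjusted p = 0.00018). CR18854 had 679 and 798 in grp fs1, 11399, 11372, 4938 and 7780 in the Slbp libraries, and 3637 and 3834 in wt (-3.51, adjusted p = 2.2e-05). Both groups were apart without overlap in either gene, and mod was at the wt level in grp fs1.

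The mutated genes came first in the check of the labels. grp, on chromosome arm 2L, had 2059 and 1718 normalized counts in grp fs1, against 13977, 13868, 13697 and 12828 in the Slbp libraries and 14113 and 13306 in wt. Both grp fs1 libraries were below all others, with a log2 difference of -2.85 (SE 0.08, adjusted p = 2.6e-06). Slbp, on 3R, had 211, 236, 262 and 186 in the Slbp libraries, against 2470 and 2183 in grp fs1 and 2776 and 2873 in wt. This gave a log2 difference of 3.38 (SE 0.14, adjusted p = 1.5e-05), and each library was low for the gene its label names. Of the 10 nearest tested genes on each side of grp, 1 was higher and 6 were lower in grp fs1. Around Slbp these counts were 7 and 5 of 20. Over all genes tested 23.2% were higher and 20.1% lower, and the counts of these neighbours were not tested against those shares.

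AOX3, an aldehyde oxidase, showed the largest deficit on the log2 scale in grp fs1 among the genes named by the rule. It had 8.40 and 6.59 normalized counts in grp fs1, 3732, 3774, 3768 and 4006 in the Slbp libraries, and 3350 and 3325 in wt. The log2 difference was -8.82 (SE 0.10, adjusted p = 2.0e-08), and wt was as high as the Slbp mutants. w, which encodes an ABC transporter of eye pigment precursors and is a common marker in fly stocks, showed the reverse. It had 10412 and 10311 in grp fs1, against 25.6, 41.1, 85.6 and 34.6 in the Slbp libraries and 37.2 and 31.6 in wt. This was a log2 difference of 7.91 (SE 0.36, adjusted p = 2.1e-05), and here wt was as low as the Slbp mutants. The other pigment and marker genes moved in both directions. cn, kynurenine 3-monooxygenase of the brown pigment path, was higher in grp fs1 (43.9 and 95.1 against 0 to 6.12, log2 difference 4.28, adjusted p = 0.0022). y, needed for black pigment, was lower (0 and 15.1 against 58.6 to 122, -4.44, adjusted p = 0.0097), and so was bw, the partner of w in pigment transport (3.73 and 4.71 against 14.0 to 21.8, -1.81, adjusted p = 0.013). Of 7 tested genes of this list, w and AOX3 included, 2 were higher and 4 lower, against 23.2% and 20.1% of all genes. Since w and AOX3 were listed with their values known, these counts are no measure of their own.

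The other 9 genes with the largest excess in grp fs1 were nearly absent from the Slbp libraries. PPO2, a prophenoloxidase of the melanization response, had 250 and 276 normalized counts in grp fs1 and 0.915, 0, 0 and 1.98 in the Slbp libraries, and 220 and 219 in wt. The 3 reads in 4 Slbp libraries gave a ratio of 364 with a 95% interval of 124 to 1773, which covers counting error only. Oat, ornithine aminotransferase, had 160 and 260 in grp fs1 and 0.915, 0.874, 0 and 0 in the Slbp libraries, and 60.5 and 73.1 in wt. Prat2, an enzyme of purine synthesis, had 108 and 216 in grp fs1 and between 0 and 1.10 in the Slbp libraries, and 157 and 200.7 in wt. In each of these genes wt was far above the Slbp mutants, with Oat lower in wt than in grp fs1. CG5958 had 69.0 and 77.2 in grp fs1 and 0 in all 4 Slbp libraries, at least 101-fold higher when set against a floor of 3 reads over the Slbp libraries. Wt had 202 and 264 of it.

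The remaining genes of this set were CG31002, Nplp2, Drsl5, Syt4 and CG30272. Drsl5, a Drosomycin-like peptide gene, had 230 and 322 in grp fs1 and 3.66, 6.12, 1.10 and 0 in the Slbp libraries. Syt4, a synaptotagmin, had 93.3 and 111 in grp fs1 and between 0 and 1.10 in the Slbp libraries. Nplp2, a gene for a neuropeptide-like precursor, had 341 and 457 in grp fs1 and between 0.990 and 7.68 in the Slbp libraries. In all of these the libraries of grp fs1 lay above those of the Slbp mutants without overlap, which the rule for named genes required.

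**Figure D3:**
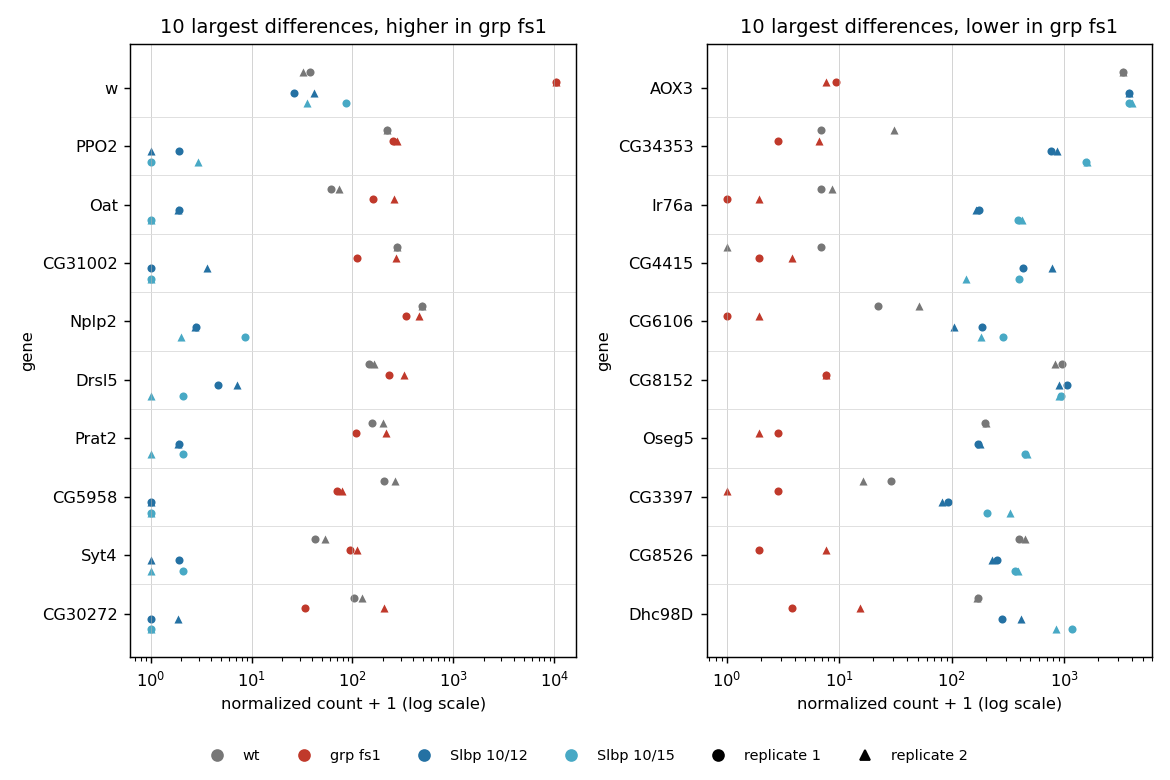
Normalized count + 1 (log axis) in each library for the 10 genes with the largest excess (left) and the 10 with the largest deficit (right) in grp fs1 among the genes named by the rule, with circles for replicate 1 and triangles for replicate 2. Wt (grey) lies near grp fs1 (red) for most genes on the left, with w as the exception at 37.2 and 31.6 normalized counts. On the right wt lies near the Slbp mutants (blue) for AOX3 and CG8152 and near grp fs1 for Ir76a and CG4415.

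The genes with the largest deficit in grp fs1 fell into those that wt also expressed and those that it did not. CG8152 had 6.53 and 6.59 normalized counts in grp fs1, 1055, 890, 924 and 903 in the Slbp libraries, and 948 and 825 in wt (log2 difference -6.96, adjusted p = 3.7e-07). CG8526 had 0.933 and 6.59 in grp fs1, between 225 and 387 in the Slbp libraries, and 393 and 448 in wt. Oseg5, an intraflagellar transport gene, had 1.87 and 0.942 in grp fs1, 170, 177, 449 and 464 in the Slbp libraries, and 194 and 200.7 in wt. Dhc98D, a dynein heavy chain, had 2.80 and 14.1 in grp fs1, 278, 412, 1163 and 848 in the Slbp libraries, and 169 and 165 in wt. For these genes, as for AOX3, grp fs1 stood alone below the other genotypes.

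In others the Slbp mutants stood alone above. Ir76a, an ionotropic receptor gene, had 0 and 0.942 in grp fs1, 173, 162, 386 and 419 in the Slbp libraries, and 5.82 and 7.64 in wt. The single read in grp fs1 gave a ratio of 590 with a 95% interval of 106 to 23307 for counting error. CG34353 had 1.87 and 5.65 in grp fs1, 759, 855, 1545 and 1596 in the Slbp libraries, and 5.82 and 29.5 in wt. CG4415 had 0.933 and 2.83 in grp fs1, 424, 783, 396 and 132 in the Slbp libraries, and 5.82 and 0 in wt. CG6106 and CG3397 lay between these patterns, with wt at 20.9 and 50.2 and at 27.9 and 15.3. All 20 genes of these sets stayed called in the same direction under every alternative in which they were tested, out of 18.

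By a rule chosen after the values were seen, 22 genes had at least 50 normalized counts in both grp fs1 libraries and under 10 in every Slbp library. Wt had a mean of at least 50 in 17 of them, and lay nearer to grp fs1 than to the Slbp mutants in 21. Several act in metabolism and transport. They include su(r), dihydropyrimidine dehydrogenase, with 70.9 and 126 in grp fs1 and between 0.915 and 1.75 in the Slbp libraries, and Gs2, glutamine synthetase 2, with 91.4 and 206 against 0.874 to 2.97. Apoltp, an apolipoprotein of lipid transfer particles, had 374 and 689 in grp fs1 and between 5.24 and 9.15 in the Slbp libraries. Oatp58Dc, an organic anion transporter, had 54.1 and 164 against 0 to 1.10. In the reverse direction 17 genes had under 10 in both grp fs1 libraries and at least 50 in every Slbp library, and here wt had a mean of at least 50 in 7 and under 10 in 5.

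The same split held over all large differences. Of the 290 genes called at least 4-fold higher in grp fs1, wt lay nearer to grp fs1 in 265 (91.4%), with a median difference to wt of -0.57 on the log2 scale for grp fs1 and -3.85 for the Slbp mutants. Of the 239 genes called at least 4-fold lower in grp fs1, wt lay nearer to grp fs1 in 74 (31.0%), with median differences to wt of -2.36 for grp fs1 and 0.72 for the Slbp mutants. Over all 8189 genes tested wt lay nearer to grp fs1 in 56.0%. Wt lay above both mutants in 194 of the 290 genes and in 81 of the 239 genes. In such genes the higher mutant is always nearer to wt, so that these shares do not measure how close it was to wt. They are a description, since all groups come from the same fit.

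Most tested histone genes were higher in grp fs1 than in the Slbp mutants. His2B:CG17949, an H2B copy, had 1405 and 1471 normalized counts in grp fs1, 590, 502, 607 and 359 in the Slbp libraries, and 2298 and 2207 in wt. The log2 difference was 1.51 (SE 0.19, adjusted p = 0.0014), and grp fs1 lay between the Slbp mutants and wt. His1:CG33801, an H1 copy, had 164 and 179 in grp fs1, 18.3, 16.6, 14.3 and 6.93 in the Slbp libraries, and 32.6 and 22.9 in wt. The log2 difference was 3.60 (SE 0.35, adjusted p = 0.00052), and here grp fs1 lay above all other libraries. His2B:CG33868 had 18.7 and 24.5 in grp fs1 and 17.4, 14.0, 17.6 and 11.9 in the Slbp libraries, against 133 and 129 in wt, and was not called (log2 difference 0.48, adjusted p = 0.23). Both mutants were low for this copy.

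Of 111 listed histone copies, 63 had 0 reads in all 8 libraries and 9 were tested. Of these 9, 6 passed the minimum through grp fs1 alone, so that the 7 called higher and 0 called lower (77.8% against 23.2% of all genes) are no measure of their own. The copies are nearly identical, and how reads were split among them is uncertain. Summed over all copies, grp fs1 had 1700 and 1827 normalized counts, the Slbp libraries 651, 552, 681 and 406, and wt 2613 and 2512. Without His2B:CG17949, which holds most of the sum, grp fs1 had 295 and 356, the Slbp libraries 60.4, 49.8, 73.6 and 46.5, and wt 315 and 305. The sums of grp fs1 and the Slbp mutants did not overlap in either form. By class, H1 copies summed to 185 and 211 in grp fs1 and to between 7.92 and 19.2 in the Slbp libraries, and H3 copies to 85.8 and 113 against 12.2 to 25.3. H2A and H4 copies had too few reads in the mutant libraries to compare, with means of 1.87 and 4.23 in grp fs1. With upper quartile scaling 3 copies were called higher. With 1 library left out there were between 3 and 6, the lowest without Slbp 10/12 replicate 2 or Slbp 10/15 replicate 2.

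The histone pseudogenes that were tested also differed, and one of them had more reads than any histone copy. His-Psi:CR33867 had 7569 and 8002 normalized counts in grp fs1, 1077, 1021, 1237 and 925 in the Slbp libraries, and 9749 and 9227 in wt. This gave a log2 difference of 2.88 (SE 0.11, adjusted p = 9.4e-06), and grp fs1 lay close to wt. His-Psi:CR33805 had 53.2 and 45.2 in grp fs1, 11.9, 14.0, 16.5 and 9.90 in the Slbp libraries, and 60.5 and 58.9 in wt (1.85, adjusted p = 0.0041). These pseudogenes were chosen after their values were seen.

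**Figure D4:**
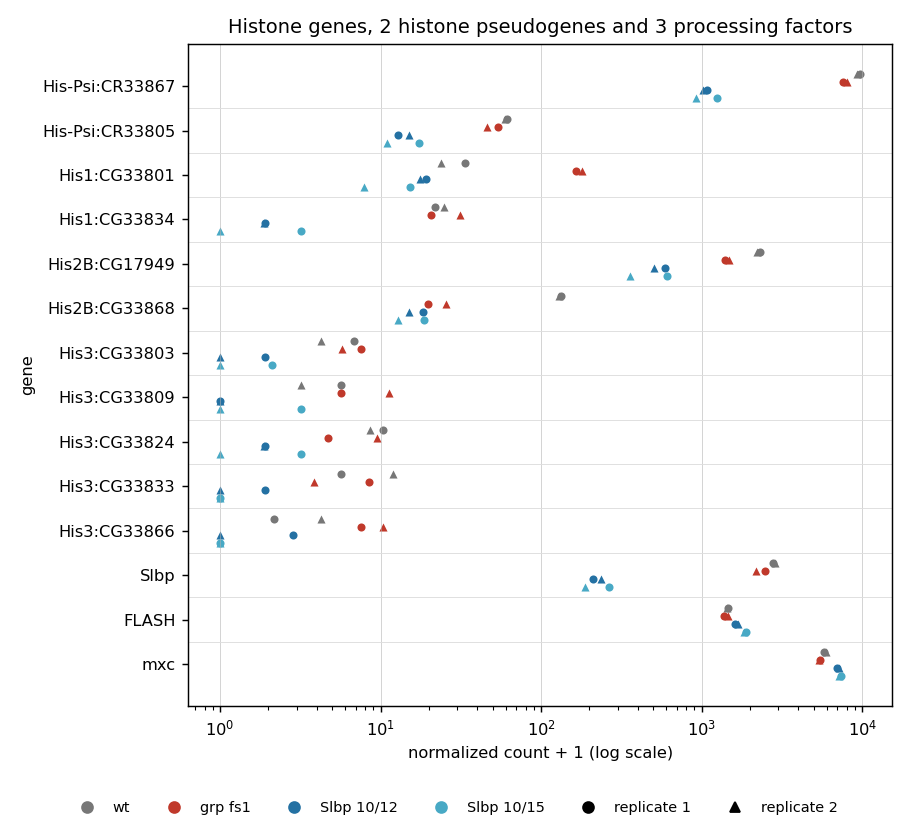
Normalized count + 1 (log axis) in each library for 9 histone copies, 2 histone pseudogenes, Slbp and 2 processing factors, with circles for replicate 1 and triangles for replicate 2. The Slbp libraries (blue) lie to the left of grp fs1 (red) and wt (grey) for both pseudogenes, His1:CG33834 and His2B:CG17949. For His2B:CG33868 both mutants lie left of wt at 133 and 129 normalized counts, and for mxc and FLASH the Slbp mutants lie on the right.

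The factors that process histone mRNAs moved little, apart from Slbp. mxc, which organizes the histone locus body, had 5428 and 5394 normalized counts in grp fs1 and 6926, 7176, 7376 and 7143 in the Slbp libraries (log2 difference -0.40, SE 0.04, adjusted p = 0.00062). FLASH, a partner of the cleavage complex, had 1377 and 1451 in grp fs1 and between 1616 and 1892 in the Slbp libraries (-0.31, adjusted p = 0.0041). Cpsf73, the endonuclease, was higher in grp fs1 by 0.45. The U7 snRNP proteins Lsm10 and Lsm11 were not called, with differences close to 0 and of -0.15. Of 19 genes of this list 4 (21.1%) were higher, Slbp included, and 3 (15.8%) lower, against 23.2% and 20.1% of all genes. With upper quartile scaling the list gave 3 higher and 0 lower. The calls of mxc and FLASH were lost with upper quartile scaling.

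Replacement histones, which are made outside S phase from polyadenylated mRNAs, did not separate the mutants. His2Av, His3.3A, His3.3B and His4r differed by 0.09, -0.08, -0.06 and -0.06 on the log2 scale, and none was called. Of 23 replacement histones and chromatin assembly genes 9 (39.1%) were higher and 3 lower, with a median of 0.10. Over all genes 23.2% were higher and 20.1% lower, so that with all libraries this list leaned towards higher calls. Nap1, a histone chaperone for H2A and H2B, had 23628 and 19965 in grp fs1 and between 14020 and 17044 in the Slbp libraries (0.48, adjusted p = 0.0039). cid, the centromeric H3 variant, differed by 0.47 (adjusted p = 0.010), a call that was lost without grp fs1 replicate 1. Caf1-180, a subunit of the replication-coupled assembly factor, had 6095 and 6642 in grp fs1 and between 6941 and 9179 in the Slbp libraries (-0.36, adjusted p = 0.0052). Without grp fs1 replicate 1 the list gave 2 higher and 3 lower, and with upper quartile scaling 7 and 0.

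The other checkpoint genes showed no common direction. Of 15 tested, 4 (26.7%) were higher and 4 (26.7%) lower in grp fs1, grp itself among the latter. nbs, of the Mre11 complex that senses broken DNA, had 1954 and 1717 normalized counts in grp fs1 and 1407, 1465, 1044 and 1046 in the Slbp libraries (log2 difference 0.58, SE 0.07, adjusted p = 0.00092). lok, which encodes Chk2, differed by 0.24 (adjusted p = 0.026), but was not called with upper quartile scaling, nor without grp fs1 replicate 1, Slbp 10/15 replicate 2 or either Slbp 10/12 library. Rif1, a regulator of replication timing, differed by -0.39, and Hus1-like, of the sliding clamp of the checkpoint, by -0.49 (adjusted p = 0.015), a call that was lost without grp fs1 replicate 2 and with upper quartile scaling. mei-41, the ATR kinase upstream of grp, and tefu, the ATM kinase, were not called, with differences of 0.09 and 0.12. Without grp fs1 replicate 1 the list gave 1 higher and 3 lower, and with upper quartile scaling 2 and 1.

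Among 17 genes of entry into mitosis 6 (35.3%) were higher and 2 (11.8%) lower. The cyclins split. CycA had 55584 and 50935 in grp fs1 and between 38993 and 44055 in the Slbp libraries (0.34, adjusted p = 0.0064), and CycB had 75182 and 73945 against 86743 to 93067 (-0.26, adjusted p = 0.017). aurA, a mitotic kinase, was higher by 0.46 (adjusted p = 0.0025) and png, a kinase that acts in the earliest cycles on cyclin translation, by 0.46 (adjusted p = 0.0081). The phosphatases stg and twe, targets of Chk1, were not called, with -0.11 and -0.01. The cyclins lost their calls with upper quartile scaling and without grp fs1 replicate 1, and CycB also without grp fs1 replicate 2 or Slbp 10/15 replicate 2. In either of the former settings 2 genes of the list were higher and 0 lower.

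Of 35 replication genes 7 were higher and 8 lower in grp fs1, close to the 23.2% and 20.1% of all genes. Orc1, a subunit of the origin recognition complex, had 6272 and 5789 in grp fs1 and between 7581 and 8368 in the Slbp libraries (-0.40, adjusted p = 0.0045), and Mcm10, which loads polymerase at origins, differed by -0.29 (adjusted p = 0.0036). RfC4, a subunit of the clamp loader, differed by 0.45 (adjusted p = 0.0071), and CDC45L, of the replicative helicase, by 0.44 (adjusted p = 0.0077). CycE and PCNA were lower by 0.27 and 0.19 on the log2 scale. None of the 8 lower calls remained with upper quartile scaling, and 6 genes were then higher. The higher genes numbered 3 without grp fs1 replicate 1 and 13 without replicate 2.

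Called genes of cell death were found in both directions. In all, 6 of 18 tested genes of this list (33.3%) were higher and 5 (27.8%) lower in grp fs1, against 23.2% and 20.1% of all genes. Dark, the Apaf-1 homolog that activates the initiator caspase, had 70.9 and 112 normalized counts in grp fs1, 1183, 1172, 1601 and 1499 in the Slbp libraries, and 1382 and 1369 in wt. The log2 difference was -3.91 (SE 0.16, adjusted p = 1.5e-05), and grp fs1 lay far below the other genotypes. Strica, a caspase, had 5.60 and 9.42 in grp fs1, 491, 447, 625 and 661 in the Slbp libraries, and 270 and 287 in wt (-6.05, SE 0.20, adjusted p = 5.3e-06). Strica was not on the list and was chosen after its values were seen. hid, which blocks the caspase inhibitor Diap1, had 58.8 and 72.5 in grp fs1, 305, 198, 180 and 211 in the Slbp libraries, and 137 and 218 in wt (-1.73, adjusted p = 0.0025). skl, a gene of the same family as hid, had 0.933 and 3.77 against 9.88 to 16.8 (-2.20, adjusted p = 0.011). It had passed the minimum through the Slbp mutants alone. Dcp-1, an effector caspase, was lower by 0.48 (adjusted p = 0.0022), and Diap1 was higher by 0.44. The calls of Dark, Strica, hid, skl and Dcp-1 were kept under every alternative in which they were tested.

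Of the same list, Corp, Ku80 and p53 were called higher in grp fs1. Corp, a p53 target, had 1422 and 1650 in grp fs1, 772, 772, 632 and 588 in the Slbp libraries, and 851 and 817 in wt (1.16, SE 0.08, adjusted p = 0.00013). Ku80, of the end-joining complex and another p53 target, had 1740 and 1438 in grp fs1, 781, 924, 639 and 586 in the Slbp libraries, and 1094 and 1044 in wt (1.13, SE 0.11, adjusted p = 0.00042). p53 itself had 1117 and 1020 against 808 to 912 (0.33, adjusted p = 0.0095), and this call was lost without grp fs1 replicate 1. rpr, another p53 target and a killer gene like hid, had 3.73 and 27.3 in grp fs1 and 6.41, 6.12, 19.8 and 0 in the Slbp libraries, with overlap, and was not called.

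Several early zygotic genes, taken from the lists of sex determination, dorsoventral and cellularization genes, were called higher in grp fs1. Of the tested genes of these lists 36.4%, 19.2% and 23.8% were higher, against 23.2% of all genes. Lower were 0%, 11.5% and 14.3%, against 20.1%. sisA, an X-linked sex determination gene that is active in syncytial embryos, had 772 and 2408 normalized counts in grp fs1, 35.7, 21.8, 234 and 94.0 in the Slbp libraries, and 337 and 397 in wt. grp fs1 was higher by 4.37 on the log2 scale (SE 0.52, adjusted p = 0.0011) and lay above wt. zen2, a homeobox gene of the dorsal side, had 57.8 and 112 in grp fs1, 3.66, 4.37, 15.4 and 27.7 in the Slbp libraries, and 129 and 133 in wt (2.97, SE 0.38, adjusted p = 0.0015). tsg and scw, both of the dorsal BMP signal, had 149 and 296 against 14.0 to 76.2 and 153 and 376 against 20.1 to 76.8 (2.47 and 2.29, adjusted p = 0.0015 and 0.0053). These 4 genes kept their calls under every alternative in which they were tested.

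Other genes of this kind were called with both grp fs1 libraries but not without replicate 2. halo, which acts on lipid droplet transport, had 381 and 766 in grp fs1 and 97.0, 28.0, 303 and 52.5 in the Slbp libraries (2.71, adjusted p = 0.023), and its call was also lost without grp fs1 replicate 1 or Slbp 10/12 replicate 2. nullo, needed for cellularization, had 94.2 and 283 against 16.6 to 74.2 (2.00, adjusted p = 0.012), and bnk, a regulator of the actin hexagons, had 193 and 405 against 29.7 to 150 (2.13, adjusted p = 0.015). Bsg25A had 481 and 1134 against 55.9 to 480 (2.17, adjusted p = 0.021). Ocho, of the Bearded family, had 95.2 and 308 against 15.6 to 59.3 (2.65, adjusted p = 0.014). In each, grp fs1 replicate 2 had the highest value of the mutant libraries. zen, of the same locus as zen2, had 110 and 228 against 27.1 to 102 (1.46, adjusted p = 0.0099) and lost its call in the same way. Sry-alpha and slam, which act in cellularization, were not called, with differences of 1.36 and -0.15.

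Few genes of the later patterning lists were called. Of 12 gap and head gap genes 0 were higher and 0 lower in grp fs1, of 10 pair-rule genes 0 and 1, of 9 segment polarity genes 0 and 1, and of 4 tested Hox genes 0 and 0, against the 23.2% and 20.1% of all genes. All 4 of the Hox genes and 4 of the 9 segment polarity genes had passed the minimum through the Slbp mutants alone. These lists varied between libraries of one group. The segment polarity genes summed to 47.6 and 349 in grp fs1, and to 201.4, 380, 594 and 28.7 in the Slbp libraries. Without grp fs1 replicate 1, 1 gap gene and 2 pair-rule genes were higher. Without grp fs1 replicate 2, 0 genes of these lists were higher by limma, and 2 segment polarity genes, 1 Hox gene and 1 pair-rule gene were lower. Without Slbp 10/15 replicate 2, 3 of the 4 Hox genes, 3 segment polarity genes, 2 pair-rule genes and 1 gap gene were lower. Without Slbp 10/15 replicate 1, 2 gap genes were higher. E(spl)mgamma-HLH, a Notch target, had 0 and 0.942 in grp fs1, 19.2, 33.2, 7.68 and 11.9 in the Slbp libraries, and 396 and 447 in wt (-3.58, adjusted p = 0.0012). Its single read in grp fs1 gave a ratio with a 95% counting interval of 6.98 to 1601. wg, the Wnt ligand of segment borders, had 2.80 and 7.53 in grp fs1 and 25.6, 48.1, 36.2 and 7.92 in the Slbp libraries (-2.17, adjusted p = 0.028), and Doc3, of the dorsal ectoderm, had 1.87 and 0.942 against 1.98 to 25.3 (-2.34, adjusted p = 0.049). The call of wg was lost without grp fs1 replicate 1 or Slbp 10/12 replicate 2, and that of Doc3 under 12 of the alternatives, either grp fs1 library left out among them. Ten-m, listed with the pair-rule genes, had 1857 and 2174 in grp fs1, 2793, 3462, 4715 and 5170 in the Slbp libraries, and 3907 and 4429 in wt (-0.96, adjusted p = 0.00090), and kept its call throughout.

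Maternal RNAs of the body axes and the germ plasm moved in both directions, with 10 of 31 (32.3%) higher and 7 (22.6%) lower in grp fs1, and 5 and 5 without grp fs1 replicate 1. nos, the posterior determinant, had 19584 and 15911 normalized counts in grp fs1 and 11707, 11575, 10286 and 9826 in the Slbp libraries (0.71, SE 0.08, adjusted p = 0.0010). vas, a germ plasm helicase, had 7340 and 6317 against 3773 to 4738 (0.71, adjusted p = 0.0038), and exu, needed to place bcd mRNA, had 20894 and 17756 against 10060 to 15065 (0.66, adjusted p = 0.0016). bcd itself had 2755 and 3116 against 3174 to 3889 (-0.27, adjusted p = 0.034), a call that was lost with upper quartile scaling and without grp fs1 replicate 1, Slbp 10/15 replicate 2 or Slbp 10/12 replicate 1. ndl, an eggshell protease of the dorsoventral signal, had 21.5 and 24.5 in grp fs1, 110, 120, 84.5 and 143 in the Slbp libraries, and 12.8 and 12.0 in wt (-2.24, adjusted p = 0.0014). pll, a kinase of the Toll path, was lower by 0.64 (adjusted p = 0.00057). Among regulators of maternal RNA decay bel was higher by 0.62 (adjusted p = 0.0079), a call that was lost without grp fs1 replicate 1, and smg and me31B were not called, with -0.04 and 0.05.

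Cytosolic ribosomal protein genes were the longest list that leaned one way. Of 88 tested, 49 (55.7%) were higher and 4 (4.55%) lower in grp fs1, with a median of 0.22 against 0.03 for all genes. The count was 43 and 2 without grp fs1 replicate 2, 31 and 1 without replicate 1, and 14 and 2 with upper quartile scaling, where the median was 0.29. RpL11 had 33930 and 30917 in grp fs1 and between 23005 and 24036 in the Slbp libraries (0.45, adjusted p = 0.0011). Of the genes called lower, RpS10a had 1.87 and 3.77 against 28.4 to 55.0 (-3.36, adjusted p = 0.0014), and RpS19b had 10.3 and 9.42 against 22.9 to 61.2 (-1.85, adjusted p = 0.026), a call that was lost without either grp fs1 library, Slbp 10/15 replicate 2 or Slbp 10/12 replicate 2.

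Of 22 tested small nuclear RNAs, those of the spliceosome and 7SK, 2 were higher and 3 lower in grp fs1. Over all genes 23.2% were higher and 20.1% lower. Of the 22, 2 had passed the minimum through grp fs1 alone and 4 through the Slbp mutants alone. snRNA:7SK, which binds P-TEFb, had 81900 and 82788 normalized counts in grp fs1, 50706, 42661, 54091 and 54155 in the Slbp libraries, and 71035 and 69309 in wt (0.71, SE 0.08, adjusted p = 0.00084). snRNA:U11, of the minor spliceosome, had 9887 and 13913 in grp fs1 and 7353, 2807, 4303 and 3462 in the Slbp libraries (1.49, adjusted p = 0.013), a call that was lost without grp fs1 replicate 2. Without Slbp 10/12 replicate 1 the small nuclear RNAs gave 5 higher and 1 lower. Of 80 small nucleolar RNAs 0 were higher and 5 lower by limma, which became 6 and 2 without Slbp 10/12 replicate 1. Of the 80 small nucleolar RNAs, 4 had passed the minimum through grp fs1 alone and 9 through the Slbp mutants alone. Of 17 mitochondrially encoded genes 0 were higher and 1 lower.

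The other lists were close to the background or rested on few genes. Of 26 dorsoventral zygotic genes 5 were higher and 3 lower in grp fs1, which became 9 and 2 without Slbp 10/15 replicate 1, 5 and 8 without Slbp 10/15 replicate 2, and 4 and 1 without grp fs1 replicate 2. Of 11 genes that count X chromosomes or set sex 4 were higher and 0 lower, with 2 and 0 without grp fs1 replicate 2. Of 21 cellularization genes 5 were higher and 3 lower, which became 1 and 6 without grp fs1 replicate 2. Of 13 Bearded and E(spl) genes 2 were higher and 3 lower, which became 0 and 7 in the same way. Of 13 tested genes of maternal RNA clearance 4 were higher and 1 lower, and of 34 proteasome subunit genes 8 and 5. Only 2 immune effector genes, 4 testis genes and 4 selenoprotein genes were tested, with 0 higher in each and 2, 2 and 1 lower. The 2 immune effector genes and 2 of the testis genes had passed the minimum through the Slbp mutants alone, and 1 testis gene through grp fs1 alone. The immune and testis counts are therefore no measure of their own. With upper quartile scaling 0 immune effector genes were called.

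**Figure D5:**
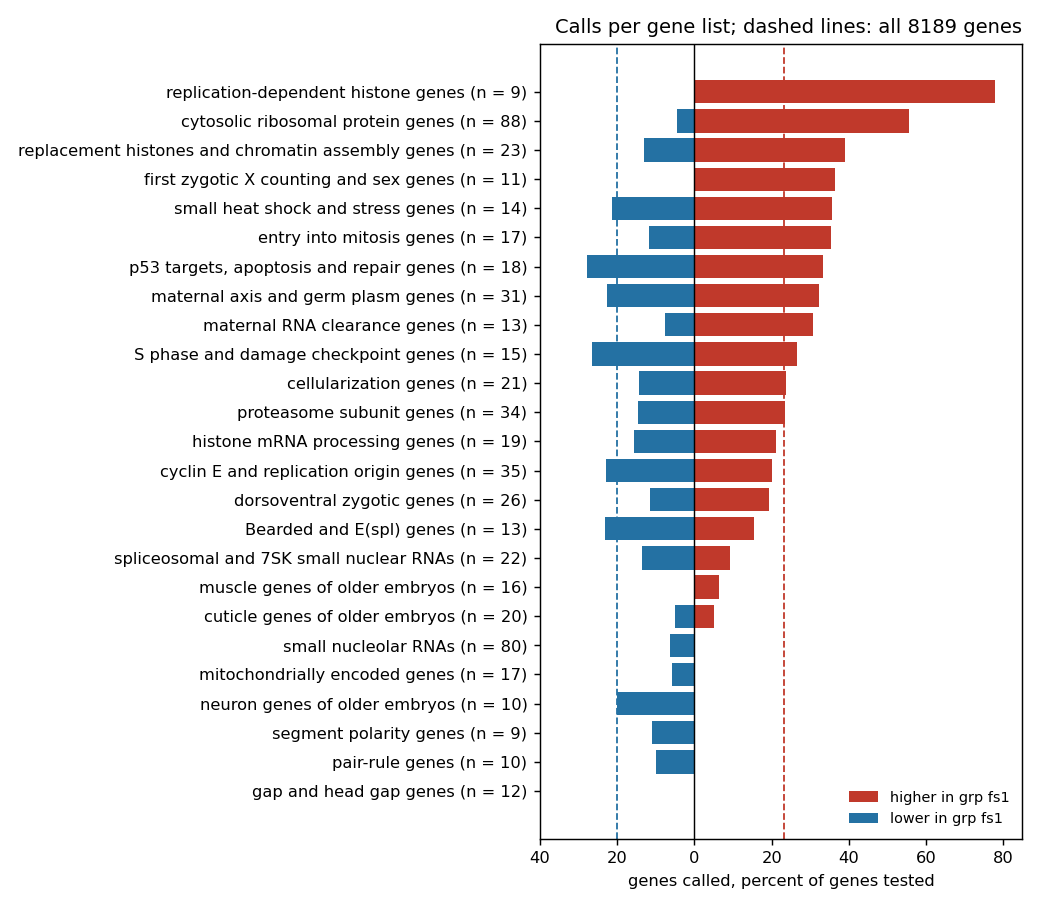
Percent of the tested genes of each list that were called higher (red, to the right) or lower (blue, to the left) in grp fs1, for lists with at least 9 tested genes. Dashed lines mark the 23.2% higher and 20.1% lower among all 8189 genes. Histone and ribosomal protein genes reach furthest to the right, with 77.8% and 55.7%, and 6 of the 9 histone genes were tested because of grp fs1 alone.

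Stress and detoxification genes did not form one group. Hsp68, an inducible chaperone, had 122 and 122 in grp fs1, 445, 692, 340 and 665 in the Slbp libraries, and 307 and 304 in wt (-2.06, adjusted p = 0.0018). Hsp26, a small heat shock protein stored in the egg, had 21374 and 18037 against 10235 to 17637 (0.52, adjusted p = 0.024), a call that was lost without grp fs1 replicate 1 or Slbp 10/12 replicate 1. Of 14 tested genes of this list 5 (35.7%) were higher and 3 (21.4%) lower, and 2 and 2 without grp fs1 replicate 1. Of 44 cytochrome P450 genes 13 (29.5%) were higher and 12 (27.3%) lower, and of 30 glutathione S-transferase genes 12 were higher and 5 lower. These families were taken by gene symbol after the values were seen. Cyp6a8 had 87.7 and 139 in grp fs1 and between 0.915 and 4.37 in the Slbp libraries (5.20, adjusted p = 0.00070), and GstE3 had 226 and 260 against 21.0 to 31.8 (3.29, adjusted p = 0.00025). Cyp4p2 was high in one Slbp combination alone, at 1293 and 1114 in Slbp 10/15, while it was at 1.83 and 0 in Slbp 10/12 and had 1.87 and 3.77 with grp fs1. It was called lower in grp fs1 against the mean of both (-3.60, adjusted p = 0.014), although the groups overlapped. This call was lost with edgeR, with the 4 Slbp libraries as 1 group and without grp fs1 replicate 1. BthD, a selenoprotein that is nearly absent from wt (9.31 and 7.64), had 1065 and 1237 in grp fs1 and 1722, 1498, 1716 and 1734 in the Slbp libraries (-0.54, adjusted p = 0.012). Its call was lost with upper quartile scaling and without grp fs1 replicate 1.

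Map205, a microtubule-associated protein that binds Polo kinase, was among the largest differences of abundant RNAs. It had 9588 and 9672 normalized counts in grp fs1, 621, 575, 261 and 12.9 in the Slbp libraries, and 6651 and 8211 in wt (5.66, SE 0.97, adjusted p = 0.0041). The lowest value was that of Slbp 10/15 replicate 2, and the 4 Slbp libraries spread widely while staying below grp fs1. pst had 907 and 1130 in grp fs1 and between 8.74 and 20.9 in the Slbp libraries, with wt at 1430 and 1253 (5.91, adjusted p = 1.6e-05). slgA, proline dehydrogenase, differed between the Slbp combinations. Its level was 7135 and 6450 in grp fs1, with 1902 and 2506 for Slbp 10/12, 102 and 124 for Slbp 10/15, and 4506 and 4154 for wt (3.77, SE 0.13, adjusted p = 5.3e-06). spo, a P450 of ecdysone synthesis that is active in the early embryo, had 689 and 3725 in grp fs1 and 108, 52.4, 355 and 44.5 in the Slbp libraries (4.02, adjusted p = 0.011), a call that was lost without grp fs1 replicate 2. Map205, pst, slgA and spo were chosen after their values were seen.

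Called genes differed in length, a trait that the test did not use. Of the 1639 shortest genes (31 to 1107 bases), 24.8% were higher and 11.3% lower in grp fs1, with a median difference of 0.10. Of the 1638 longest (3959 to 71487 bases), 14.2% were higher and 30.0% lower, with a median of -0.10. Gradients were also present between some replicates. Among genes with at least 50 normalized counts in all 8 libraries, the median of grp fs1 replicate 1 minus replicate 2 went from 0.08 for the shortest to -0.04 for the longest genes, and that of Slbp 10/12 replicate 1 minus replicate 2 from 0.09 to -0.08. For wt it went from 0.03 to -0.03, and for Slbp 10/15 from -0.02 to -0.04. The part of length in the calls was not tested. The median length of the 88 ribosomal protein genes was 793.5 bases.

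By chromosome arm the calls were even. On the 5 large arms between 22.6% and 24.9% of genes were higher and between 19.4% and 20.8% lower in grp fs1, among the 8002 genes that matched the annotation. On chromosome 4, with 74 genes, these were 12.2% and 16.2%. Differences of at least 4-fold were less even. On 2L, 77 of 1436 genes (5.36%) were higher by as much, against 28 of 1394 (2.01%) on X, and on 2R, 56 of 1566 (3.58%) were lower. No arm is free of such genes in either direction except chromosome 4, where 1 was higher and 0 lower.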

How the data were processed

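Total RNA of whole embryos was depleted of ribosomal RNA and sequenced. Per the submitters' processing notes, FastQC (0.10.1), TopHat, featureCounts, DESeq and the dm3 build were used. The deposited values of the mutant table are normalized counts, a signal that the authors made by dividing read counts per gene by a size factor per library. In every library of this table whole reads were recovered from these steps for 100% of values, within 0.01 reads. The FPKM values that the authors deposited beside them were not used in the tests. No column of per-sample values was left out (0 columns).

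Values were taken as log2(normalized count + 1), for genes averaging 5 or more in grp fs1 or in the Slbp mutants. limma (3.58.1, in R 4.3.3) was fitted with a term for each of the 4 groups, wt included, without a block and with a mean-variance trend. Tests were two-sided, p-values were adjusted by Benjamini and Hochberg over all 8189 genes, and a gene was called at an adjusted p under 0.05. The main contrast was grp fs1 minus the mean of both Slbp mutants. The scale understates changes of low genes. Ratios resting on 1 to 3 reads have exact binomial intervals of 95%. Intervals and floors (3 reads over a group) cover counting error only. Alternatives were pseudocount 5, no filter or a filter in every mutant library, other scalings, a replicate block, edgeR (4.0.16) and DESeq2 (1.42.0) on the recovered reads, other sets of libraries, and each library left out in turn. Python 3.11.15, pandas 2.3.3, scipy 1.17.1 and matplotlib 3.10.9 were used otherwise.

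Named by rule were grp and Slbp, the 10 largest differences in each direction among genes called against both Slbp mutants whose higher group averaged 50 or more and whose libraries did not overlap, the 2 largest called members of each list per direction with its most abundant member, and w, AOX3 and BthD. Further genes in the text were chosen after their values were seen. The comparison, the members and all 33 lists were chosen with earlier results of these data known, and list symbols were corrected after the tables were read. Chromosome arms and gene order came from the BDGP6.54 annotation, which differs from dm3, so no coordinates are given. No sequence was used here. A result of the ribosomal protein list is not reported here.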

Additional observations from a re-analysis of the deposited data

Results flagged for a closer look

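For 12 named genes the difference between grp fs1 and Slbp 10/15 was not the same as that between grp fs1 and Slbp 10/12, by the limma contrast of the Slbp combinations with p adjusted over all genes. Since grp fs1 is common to both, these values are differences between the Slbp combinations, and 461 of the 8189 genes passed this test. The value given is the log2 difference against Slbp 10/15 minus that against Slbp 10/12.

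The largest was Cyp4p2, at -9.48 (adjusted p = 0.0077), which was high in Slbp 10/15 alone. slgA, proline dehydrogenase, was at 4.27 (adjusted p = 4.0e-05), with an excess in grp fs1 of 1.64 over Slbp 10/12 and of 5.90 over Slbp 10/15. The early zygotic genes zen2 and tsg were at -2.12 (adjusted p = 0.042) and -1.98 (adjusted p = 0.032), so that the excess in grp fs1 was smaller over Slbp 10/15. Oseg5 was at -1.39 (adjusted p = 0.031) and Ten-m at -0.67 (adjusted p = 0.033), with a larger deficit of grp fs1 against Slbp 10/15.

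The other values were below 1 in size. The proteasome subunit genes Rpn2 and Rpn8 moved in opposite directions, at -0.62 (adjusted p = 0.030) and 0.46 (adjusted p = 0.046). nbs was at 0.46 (adjusted p = 0.026), pav, a mitotic kinesin, at -0.39 (adjusted p = 0.013), crq, a scavenger receptor of haemocytes, at 0.27 (adjusted p = 0.041), and cnc at 0.25 (adjusted p = 0.049).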

How the results depend on the processing

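Against the mean of both Slbp mutants, treating the 4 Slbp libraries as 1 group left 1114 genes higher in grp fs1, and upper quartile scaling left 615 lower. Leaving out 1 library at a time gave 1391 to 1773 genes higher and 924 to 1655 lower, with the lowest counts without grp fs1 replicate 1. For genes called against each Slbp mutant, upper quartile scaling gave 597 higher and 291 lower, and leaving out 1 library at a time gave 513 to 919 higher and 498 to 935 lower. Slbp 10/12 replicate 1 gave the lowest of these, and without Slbp 10/12 replicate 2 there were 624 and 586. The other alternatives, edgeR and DESeq2 included, kept each count within 1.5 times. Counts of at least 4-fold differences, an alternative added after seeing the data, ranged from 66 genes higher and 81 lower (at least 5 in every mutant library) to 571 higher (without grp fs1 replicate 1) and 333 lower (without grp fs1 replicate 2). Of 149 called named genes, 82 kept their call under every alternative. Calls lost with the 4 Slbp libraries as 1 group or with no filter are mostly not given beside the genes above. Among the calls lost in the former way were those of halo, nullo, zen, Bsg25A, Hus1-like, lok, CycB, bcd, wg and Hsp26, and bcd and wg also lost theirs with no filter. Of all 181 named genes 2 reversed, neither of which was called with all libraries: Mhc was at -2.46 (adjusted p = 0.017) without grp fs1 replicate 2 and at 6.72 without replicate 1, and snoRNA:Psi28S-2566 at 0.47 (adjusted p = 0.015) without Slbp 10/12 replicate 1 and at -0.89 without replicate 2. The causes were not tested. With a replicate block 1851 genes were higher and 1654 lower, and 897 and 925 against each Slbp mutant. Deviations of same-numbered libraries correlated between -0.264 and 0.107, so that the numbers were not taken as pairs. Depth limits genes of few reads, where fitted differences depend on the pseudocount.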
